A study of Mus musculus with 18 samples.

Results

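The genes described here make up the folding, import and quality-control machinery of the endoplasmic reticulum (ER), together with the sensors and targets of the unfolded protein response. They were taken by symbol from a fixed list of 43 genes, and all 43 had a row in the liver table and in the pancreas table, out of 55291 gene symbols in each. By role, 9 encode ER chaperones and co-chaperones, 4 encode lectins and glucosidase II subunits, 5 encode disulfide isomerases or a proline isomerase, 9 belong to the translocon and signal peptidase, 7 act in ER-associated degradation, 6 are sensors or transcription factors and 3 are targets of the integrated stress response.

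RNA was measured in whole liver and pancreas of Otub2 knock-out mice and WT mice kept under normal conditions. Otub2 encodes a deubiquitinase of the OTU family, and the study concerns its part in pancreatic beta cells. In liver, 5 HET libraries (OTUB2 +/-, 1 intact copy) were set against 2 WT libraries (2 intact copies). In pancreas there were 3 HOM libraries (0 intact copies, all male), 5 HET libraries (3 male, 2 female) and 3 WT libraries (2 male, 1 female). The sources used here do not give age, strain background or the way the allele was made, and sex was not stated for the livers. Libraries carry the submitters' replicate numbers. The labels do not say whether each library is a separate animal, so p-values may measure only the spread between samples.

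Secreted and membrane proteins enter the ER through the Sec61 channel, where signal peptidase trims them and the translocon-associated proteins (the Ssr genes) help some of them pass. Chaperones such as BiP (Hspa5) and GRP94 (Hsp90b1), the lectins calnexin and calreticulin and the disulfide isomerases fold them, and proteins that fail are pulled back to the cytosol and degraded. When unfolded protein builds up, the sensors IRE1 (Ern1), PERK (Eif2ak3) and ATF6 raise chaperone, degradation and stress genes through XBP1, ATF6 and ATF4. Hepatocytes and pancreatic acinar cells are professional secretory cells and are known for an extensive rough ER.

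Total counts were 155201 (WT 1) to 1686234 (HET 5) in liver and 49502 (HET 9) to 1326541 (HET 11) in pancreas. Values below are counts scaled to a library total of 1000000 (CPM), and since the libraries count 3′ ends, a level does not depend on transcript length. All 8 hepatocyte markers, Alb and Apoa1 among them, were counted in every liver. In the libraries labelled pancreas, the acinar genes Prss1, Prss2, Cela3b, Ctrb1, Cel and Amy2a5 were listed at 0 throughout. Only 2 to 4 of the 14 acinar genes listed were counted in each, Clps in all 11. HET 11 and HET 16 stood apart from the other 9 pancreata, with 193020 to 231102 CPM of stomach mucosa markers against 18.4 to 25736 CPM. Their acinar sums were also the highest, 165021 CPM in HET 11 and 62821 CPM in HET 16 against 105 to 15988 CPM. Otub2 had 0 counts in HOM pancreata except 1 count in HOM 10, and 0 in HET pancreata except 1 count in HET 16. WT pancreata had 3, 4 and 3 counts. That was 15.9 to 63.0 CPM in WT, at most 4.88 CPM in HOM and at most 1.49 CPM in HET. HET 11 had 0 Otub2 counts in a total of 1326541. HET pancreata, labelled with 1 intact copy, were thus not above HOM pancreata, labelled with 0, and the reason was not tested. In liver Otub2 had 0 to 2 counts per library, too few to check the labels.

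Promoters of some of these genes hold the ER stress elements through which ATF6 and XBP1 are known to act. In the 250 bases before the RefSeq start (GRCm38.p6), the ER stress response element ERSE, which is CCAAT and CCACG with any 9 bases between them, searched on both strands, was found in 9 of the 37 members with a window (24.3%), against 37 of all 32851 windows (0.113%). The 9 were Hspa5, Hsp90b1, Dnajc3, Creld2, Calr, Canx, Pdia6, Syvn1 and Derl3. ERSE-II, ATTGG and CCACG with any 1 base between them, was found in Herpud1 and in 0.0304% of all windows. The amino acid response element matched as TGATGNAA was found in Asns, Chac1 and Herpud1 (8.11% of members with a window, against 3.45% of all windows). The matches nearest to the start left 25 bases (Syvn1) to 143 bases (Calr) between motif and start. The whole Hspa5 window is printed as the best-known promoter of this kind, and 7 of the other 9 as the motif with 20 bases on each side, chosen to include members both above and below the other livers in 1 liver described further on. Canx and Derl3 are named only. Each is RefSeq sequence on the strand of its gene, the capitals mark the ERSE or ERSE-II, and a motif on the opposite strand reads CGTGG to ATTGG. The GENCODE span of Hspa5 starts at base 34771970, inside its window. A match is a description of letters, not of a bound site.
Hspa5, chr2:34771840-34772089, plus strand: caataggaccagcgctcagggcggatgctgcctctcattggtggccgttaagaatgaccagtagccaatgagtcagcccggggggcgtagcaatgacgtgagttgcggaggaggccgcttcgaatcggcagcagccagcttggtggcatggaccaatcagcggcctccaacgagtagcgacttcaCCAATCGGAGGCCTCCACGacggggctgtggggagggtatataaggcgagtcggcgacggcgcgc
Hsp90b1, chr10:86705513-86705676, minus strand: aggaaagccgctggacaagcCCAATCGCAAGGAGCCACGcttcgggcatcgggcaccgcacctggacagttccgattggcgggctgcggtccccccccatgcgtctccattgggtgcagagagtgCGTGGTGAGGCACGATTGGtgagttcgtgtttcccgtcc
Dnajc3, chr14:118937807-118937865, plus strand: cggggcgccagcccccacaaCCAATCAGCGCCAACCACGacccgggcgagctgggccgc
Creld2, chr15:88819500-88819558, plus strand: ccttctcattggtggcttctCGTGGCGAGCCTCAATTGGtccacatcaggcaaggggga
Pdia6, chr12:17266471-17266529, plus strand: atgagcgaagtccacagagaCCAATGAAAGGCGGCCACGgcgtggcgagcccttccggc
Herpud1, chr8:94386357-94386407, plus strand: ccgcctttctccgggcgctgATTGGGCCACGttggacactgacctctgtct
Calr, chr8:84847055-84847113, minus strand: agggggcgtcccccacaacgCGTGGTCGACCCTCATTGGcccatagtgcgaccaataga
Syvn1, chr19:6046512-6046570, plus strand: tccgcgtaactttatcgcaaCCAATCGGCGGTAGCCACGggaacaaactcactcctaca

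In liver, most of the members that could be tested had somewhat higher counts with 1 Otub2 copy than with 2, but no member passed the test. The highest fold changes were those of Ssr3, Dnajc3, Ssr4 and Pdia3, which belong to 3 different roles. By role the median was highest for the translocon and signal peptidase genes, and the lectins and degradation genes had medians near 0. Of the 43 members, 32 had counts enough to be tested, and 0 of them had an edgeR adjusted p under 0.05. Across all 4803 genes tested, 0 were called as well (percent called 0), 497 had an unadjusted p under 0.05, and DESeq2 called 16. Among the members, 7 had an unadjusted p under 0.05 and a higher level in HET (5.39% of all genes tested), and 0 had one and a lower level (4.96% of all genes). The log2 fold change was above 0 for 25 of the 32 members and for 52.1% of all genes, with a median of 0.44 over the members and 0.027 over all genes. The members' median depended on the WT libraries: it was 0.89 without WT 1, 0.33 without WT 2, and 0.38 to 0.50 with any of the HET livers left out. The 5 HET livers lay above both WT livers for 5 members, Ganab, Sec61b, Ssr4, Spcs2 and Xbp1 (6.95% of all genes), and below both for 0 members (11.1% of all genes). The members together took 0.895% to 1.17% of all counts in HET livers and 0.742% to 0.939% in WT livers.

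**Figure D1:**
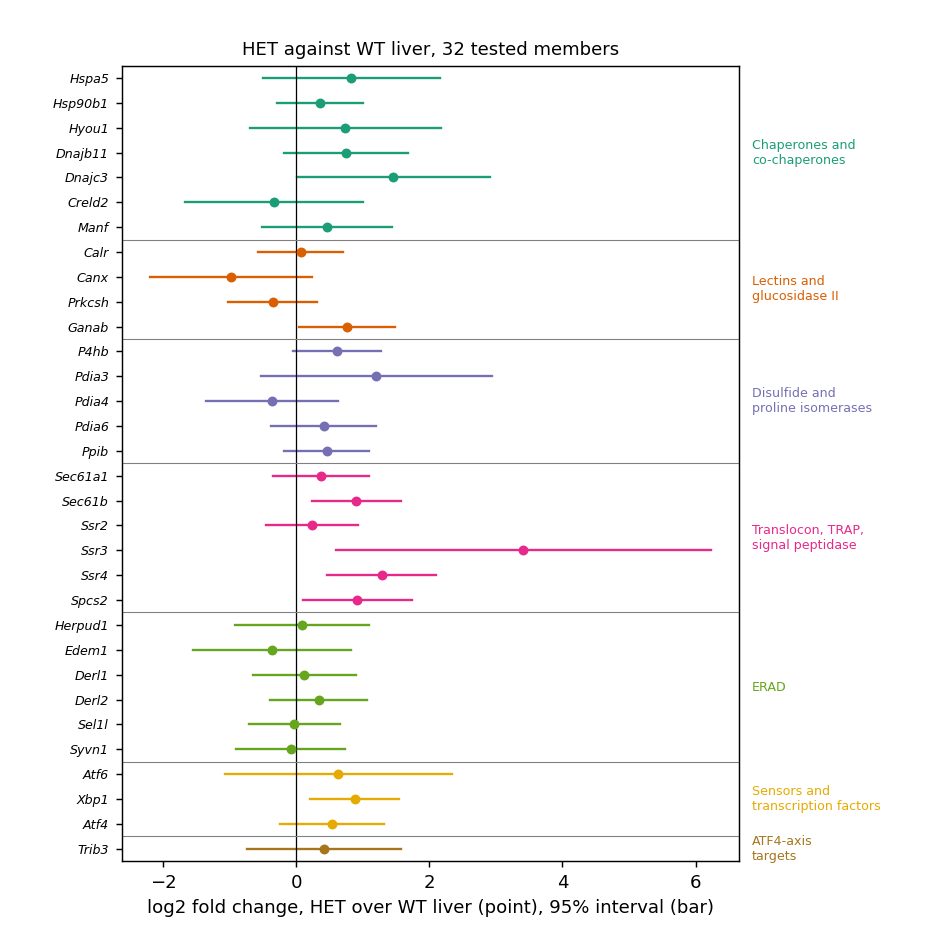
Log2 fold change (HET over WT, edgeR) of each of the 32 members tested in liver, grouped by role, with 95% confidence intervals from 5 HET and 2 WT livers. All 6 translocon members lie to the right of 0, and the lowest adjusted p of any member is 0.247 (Ssr4).

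Some marker sums also differed between the livers in step with genotype, and others did not. The summed hepatocyte markers were 83357 to 96598 CPM in HET livers and 97029 to 113163 CPM in WT livers, and the macrophage markers 344 to 693 and 715 to 768 CPM in HET and WT livers. The plasma cell list, a type of cell with a large ER, summed to 162 to 256 CPM in HET livers and 295 to 464 CPM in WT livers, with Jchain and Mzb1 at 0 in all 7. Stellate and fibroblast markers summed to 74.1 to 134 CPM in HET livers and 148 to 234 CPM in WT livers. Mitochondrially encoded transcripts summed to 1077 to 2384 CPM in HET livers and 2408 to 2816 CPM in WT livers. Acinar markers went the other way, with 98.4 to 192 CPM in HET livers and 37.9 to 70.9 CPM in WT livers. Only 1 to 3 of the 14 acinar genes were counted in each liver, Cela1 in all 7, so this sum is not an acinar cell signal. None of these 6 sums overlapped between the groups, and their part in the members' values was not tested. The endothelial, duct, acute phase and stomach mucosa sums and that of genes in common use overlapped, and islet genes were at 0. Of all single genes tested, 6.95% were apart and higher in HET livers and 11.1% apart and lower. In bulk tissue, fewer cells of a type and less RNA per cell cannot be told apart.

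The translocon and signal peptidase genes had the highest role median, a log2 fold change of 0.91 over 6 tested members, all above 0. Ssr4 (chrX:73787028-73790830), the delta subunit of the translocon-associated protein complex, had 463, 564, 329, 435 and 229 CPM in HET livers 1 to 5 and 213 and 146 CPM in WT livers 1 and 2. Every HET liver was above both WT livers, HET 5 by the least, and the log2 fold change was 1.29 ± 0.39 (SE, edgeR adjusted p = 0.247, 95% interval 0.47 to 2.11). With no filter on low counts its adjusted p was 0.0324, and over all alternatives it ran from 0.0081 to 0.775. Sec61b, the beta subunit of the channel (chr4:47474658-47483242), had 309, 373, 226, 344 and 286 CPM in HET livers and 168 and 181 CPM in WT livers. Its groups were also apart, with a log2 fold change of 0.91 ± 0.32 (adjusted p = 0.350). The last 300 bases of Sec61b have near-identical copies in the predicted genes Gm10320, Gm33666 and Gm5870, so its count is uncertain.

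Spcs2, a signal peptidase subunit (chr7:99837569-99863462), had 102, 103, 105, 117 and 145 CPM in HET livers and 83.8 and 49.6 CPM in WT livers (log2 fold change 0.92 ± 0.39, adjusted p = 0.423). The 5 HET livers were close together and above both WT livers. Ssr3, the gamma subunit of the Ssr complex, was counted 3, 23, 3, 7 and 68 times in HET livers and 1 and 0 times in WT livers. Its log2 fold change of 3.41 ± 1.34 (adjusted p = 0.393) was the highest of any member but rests on 1 WT count, and it was 1.88 without WT 2, while without WT 1 no WT count remains. The log2 fold change of Spcs2 was 1.38 without WT 1 and 0.53 without WT 2. Ssr2 and Sec61a1 had log2 fold changes of 0.24 and 0.37 with overlapping groups. Of the untested members, Ssr1 had 21 counts over the HET livers and 0 over the WT livers. Pooled, that was 5.73 CPM in HET. At 3 counts, the limit that 0 counts allow, WT could hold 6.03 CPM, so these counts show no difference. Summed over the 9 genes, the translocon set ran from 1137 to 1733 CPM in HET livers and from 838 to 1063 CPM in WT livers.

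**Figure D2:**
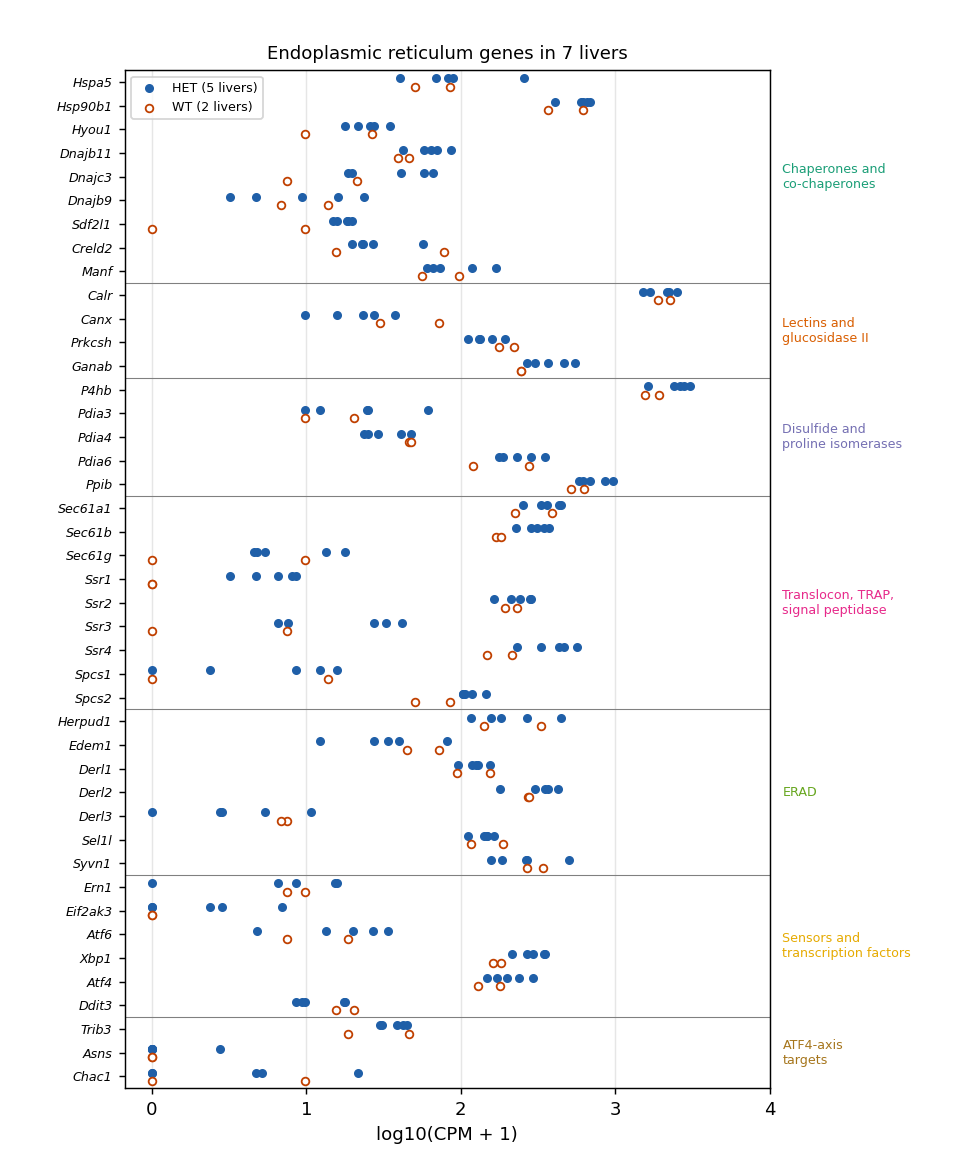
Level of all 43 members as log10(CPM + 1), with a filled point for each of 5 HET livers above an open point for each of 2 WT livers, grouped by role. Of the 32 tested members, Ssr4, Sec61b, Xbp1, Spcs2 and Ganab do not overlap between the genotypes (6.95% of all genes tested, higher in HET). Of the untested ones Sdf2l1 and Ssr1 do not, but their WT counts, 3 and 0 in total, are too few to show a difference.

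The chaperones were mostly higher in HET than in WT livers by their fitted values, with a median log2 fold change of 0.74 and 6 of 7 tested members above 0, but their groups overlapped. Hspa5, the main ER chaperone of the Hsp70 family, had 81.9, 88.7, 39.5, 68.0 and 256 CPM in HET livers and 83.8 and 49.6 CPM in WT livers. HET 5 alone was above the WT range by a wide margin, and the log2 fold change was 0.83 ± 0.62 (adjusted p = 0.677). Hsp90b1, the ER form of Hsp90, was the most abundant chaperone, with 622, 658, 406, 597 and 683 CPM in HET livers and 619 and 365 CPM in WT livers. Dnajc3, a co-chaperone of BiP that also inhibits PERK, had 18.6, 40.2, 17.5, 56.7 and 64.6 CPM in HET livers and 6.44 and 20.4 CPM in WT livers. HET 1 and HET 3 lay just below WT 2, and the log2 fold change was 1.46 ± 0.69 (adjusted p = 0.478), which became 1.12 without WT 1 and 2.65 without WT 2. Dnajb11, another BiP co-chaperone, had a log2 fold change of 0.75 ± 0.44 (adjusted p = 0.585) with 41.6 to 85.4 CPM in HET livers and 37.9 to 45.1 CPM in WT livers.

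Creld2, a stress-induced ER protein, was the tested chaperone with a log2 fold change below 0 (−0.33), and its highest liver was WT 1 at 77.3 CPM, against 14.6 CPM in WT 2 and 18.9 to 55.7 CPM in HET livers. Manf and Hyou1 had log2 fold changes of 0.47 and 0.74, with overlapping groups. Sdf2l1, which works with BiP and its co-chaperones, was too low to be tested. It had 60 counts over the 5 HET livers (13.9 to 18.9 CPM) and 3 counts over the 2 WT livers (0 and 8.76 CPM). Its groups were apart, but 3 counts in WT 1, the limit that 0 counts allow, would be 19.3 CPM, above every HET liver.

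Glucosidase II and the lectins had fold changes of both signs. Ganab, the catalytic subunit of glucosidase II (chr19:8898071-8916672), had 299.7, 366, 465, 548 and 267 CPM in HET livers and 245 CPM in each WT liver, with a log2 fold change of 0.76 ± 0.34 (adjusted p = 0.463). Prkcsh, the beta subunit of the same enzyme, had 130.3, 133, 109.6, 159 and 192 CPM in HET livers and 219 and 175 CPM in WT livers (log2 fold change −0.35 ± 0.32, adjusted p = 0.733). The subunits thus had fold changes of opposite sign, and neither passed the test. Canx, the membrane-bound lectin calnexin, had 8.77 to 36.8 CPM in HET livers and 70.9 and 29.2 CPM in WT livers, and its log2 fold change of −0.98 ± 0.58 (adjusted p = 0.585) was the lowest of any tested member. It was −0.21 without WT 1 and −1.58 without WT 2. Calr, the soluble lectin calreticulin, averaged 2029 ± 417 CPM in HET livers (SD, n = 5) and 2072 ± 259 CPM in WT livers (SD, n = 2), and the 95% interval of its log2 fold change was −0.57 to 0.71.

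Among the isomerases, P4hb, the abundant protein disulfide isomerase, had 2630.1, 2786, 2392, 3042 and 1639.8 CPM in HET livers and 1920.1 and 1562 CPM in WT livers. The 4 shallower HET livers were above both WT livers and HET 5 was between them, with a log2 fold change of 0.62 ± 0.31 (adjusted p = 0.513). Pdia3, which folds glycoproteins with the lectins, Pdia6 and the proline isomerase Ppib had log2 fold changes of 1.21, 0.41 and 0.46, and Pdia4 one of −0.37. All 4 had overlapping groups. Ppib and Pdia6 have a gene on the opposite strand within 1000 bases of their ends (Snx22 and Atp6v1c2), and the use of strand in counting is not stated.

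The degradation genes had the role median nearest to 0, a median log2 fold change of 0.035 over 6 tested members. The log2 fold change was 0.095 for Herpud1, which helps assemble the degradation complex, 0.12 and 0.34 for the Derlin genes Derl1 and Derl2, −0.025 for Sel1l and −0.083 for the ubiquitin ligase Syvn1, which Sel1l supports, and −0.37 for Edem1, a mannosidase-like protein that marks misfolded glycoproteins. Herpud1 shows how far single livers were apart within a genotype, with 266, 182, 116, 155 and 445 CPM in HET livers and 329 and 140.1 CPM in WT livers.

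Xbp1, the transcription factor activated by IRE1 (chr11:5520659-5525893), had 214, 294, 267, 348 and 347 CPM in HET livers and 180.4 and 161 CPM in WT livers. Its groups did not overlap, and the log2 fold change was 0.88 ± 0.32 (adjusted p = 0.375). The counts do not tell spliced from unspliced Xbp1 mRNA. Atf4, the factor translated when PERK is active, had 146 to 292 CPM in HET livers and 129 and 178 CPM in WT livers (log2 fold change 0.54), and Atf6 3.78 to 32.9 CPM in HET livers and 6.44 and 17.5 CPM in WT livers (0.63). The sensors Ern1 and Eif2ak3 were too low to test, with at most 14.9 CPM in any liver.

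The stress genes Ddit3, Trib3 and Asns were at low levels in liver. Ddit3, the stress factor CHOP, had 7.56 to 16.8 CPM in HET livers and 19.3 and 14.6 CPM in WT livers and was not tested. Trib3, a pseudokinase induced by ATF4 and CHOP, had 29.1 to 43.8 CPM in HET livers and 45.1 and 17.5 CPM in WT livers (log2 fold change 0.42, adjusted p = 0.836). Asns, asparagine synthetase, had 3 counts in HET 5 and 0 in the other 6 livers.

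From 94 further genes of the same pathway (oligosaccharyltransferase, signal recognition particle, folding enzymes, degradation and stress targets), 63 were tested in liver and 0 were called. The log2 fold change was above 0 for 45 of them and below 0 for 18, with a median of 0.29. The 5 with the smallest p were all higher in HET by their fitted values. Of them, 4 serve import into the ER, but they were picked by p, so this is not a result about import. The values of the other import genes in the list are not given here. Srp19, a protein of the signal recognition particle, averaged 32.1 ± 9.78 CPM in HET livers and 4.68 ± 2.49 CPM in WT livers (log2 fold change 2.98, adjusted p = 0.242), and Sec11c, a catalytic signal peptidase subunit, 29.4 ± 10.2 CPM in HET livers and 4.68 ± 2.49 CPM in WT livers (2.89, adjusted p = 0.247). Each had 2 counts over the WT livers. Srp14, the ER proline isomerase Fkbp11 and the receptor subunit Srprb followed with log2 fold changes of 1.64, 1.47 and 1.24 (adjusted p = 0.393, 0.403 and 0.460).

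Among the HET livers, HET 5 differed from the other livers in a way that crossed the roles. It was the deepest library and had the lowest acute phase sum, 14360 CPM, against 21489 to 75900 CPM in the other HET livers and 22848 to 27445 CPM in WT livers. HET 5 was also the lowest of the 7 livers for mitochondrially encoded (1077 CPM), macrophage (344 CPM), stellate and fibroblast (74.1 CPM) and common-use sums (3880 CPM). Its endothelial (141 CPM) and acinar (192 CPM) sums were the highest. The part of these sums in its member levels was not tested. HET 5 was the highest of all 7 livers for 11 of the 32 tested members (21.1% of all genes tested). Among members with at least 30 counts over the other 6 livers, the highest levels relative to their median were 6.19 times for Ssr3, 3.95 times for Pdia3, 3.41 times for Hspa5, 3.31 times for Dnajc3, 2.64 times for Herpud1, 2.53 times for Creld2, 2.45 times for Manf and 2.24 times for Edem1. Known targets of the unfolded protein response stood on both sides, since the level was 1.20 times for Sdf2l1, 1.12 times for Hsp90b1, 0.818 times for Hyou1, 0.736 times for Trib3 and 0.532 times for Ddit3. In the same library Ssr4 stood at 0.600 times the median of the other livers, P4hb at 0.653 times, Calr at 0.689 times, Syvn1 at 0.690 times and Derl2 at 0.550 times, so the members did not shift together.

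The 9 members with ERSE or ERSE-II and at least 30 counts over the other livers had a median ratio of 1.68 (0.689 to 3.41), and 5 of them were highest in HET 5. The 19 with a window but no match had a median ratio of 1.07 (0.532 to 6.19), and 5 of them were highest in HET 5. The ranges overlapped widely: Calr, with an ERSE, was below 1, and Ssr3 and Pdia3, with no match, stood at 6.19 and 3.95 times. These ratios describe 1 library, with no replicate to test them.

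**Figure D3:**
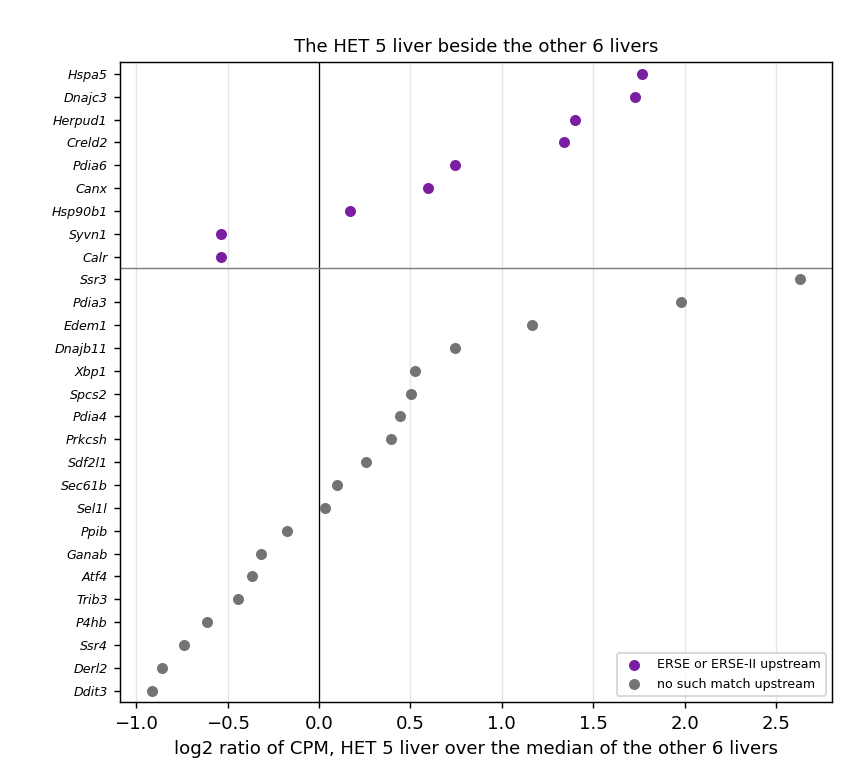
Level of each member in liver HET 5 over its median in the other 6 livers, as a log2 ratio, for members with a promoter window and at least 30 counts over those 6 livers. Points are split by an ERSE or ERSE-II match in the promoter window, and Hspa5 at 3.41 times and Calr at 0.689 times both carry a match.

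In pancreas far fewer members were counted, and genes in common use were often at 0 as well. Of 6 such genes, all were counted in every liver, but only 2 to 4 in each pancreas, with Eef1a1 and Ppia each at 0 in 10 of the 11 pancreata. At least 1 count was found for 37 to 43 of the 43 members in every liver, for 31 in pancreas HET 11, for 26 in pancreas HET 16 and for 7 to 12 in the other 9 pancreata. Depth differed too, and its part in these numbers was not tested. The deepest pancreata, HET 11 with 1326541 counts and HET 16 with 670588, were those with the most members. Pancreas HET 15, with 162609 counts, held 9 of the members, and liver WT 1, with 155201 counts, held 37. Members took 0.122% to 0.301% of the counts in pancreas. Dnajc3, Ssr3, Spcs1, Derl3, Ern1 and Trib3 had 0 counts in all 11. Only 6 members could be tested among 3719 genes: Hsp90b1, Calr, Prkcsh, P4hb, Sec61a1 and Sel1l.

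None of the 6 was called in any of the 3 pancreas comparisons, which share libraries, so their values are set side by side. Over all genes edgeR called 0 in each (percent called 0). Between HOM and WT, 185 genes had an unadjusted p under 0.05 and DESeq2 called 5. Among the 6 members, 1 had such a p and was higher in HOM (Prkcsh, 4.06% of all genes) and 0 were lower (0.914%). Between HET and WT, 517 genes had an unadjusted p under 0.05 and DESeq2 called 183. Of the members, 3 had such a p and were higher in HET (Prkcsh, P4hb and Calr, 9.2% of all genes) and 0 were lower (4.71%). These 3 genes were at or near 0 in WT and passed the count filter through the libraries where they were high, so their direction was fixed by the filter and the count supports nothing, here or in the other pancreas comparisons. Between HOM and HET, 410 genes had an unadjusted p under 0.05 and DESeq2 called 46, and of the members 0 were higher in HOM (6% of all genes) and 2 lower (Calr and Hsp90b1, 5.03%). The groups were apart for 1 member in HOM against WT, higher in HOM (8.31% of all genes, and 2.9% lower). They overlapped for all 6 members in HET against WT (0.753% of all genes apart and higher, 3.58% lower) and in HOM against HET (6.21% higher, 0.484% lower).

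Prkcsh (chr9:22002806-22014222) had the smallest p of the members against WT. It had 53, 32 and 98 counts in HOM 10, 19 and 21 and 0 counts in each WT pancreas, so the groups did not overlap. HOM pancreata thus held 258, 632 and 761 CPM, and the 3 WT pancreata at most 9.00 CPM together at 3 counts, the limit that 0 counts allow. Pooled, it was at least 52.9-fold higher in HOM (edgeR adjusted p = 0.957). HET pancreata 9, 10, 11, 15 and 16 held 21, 0, 303, 16 and 125 counts, or 424, 0, 228, 98.4 and 186 CPM. HET 10 was at 0 like the WT pancreata, and pooled HET was at least 22.6-fold higher than WT (edgeR adjusted p = 0.0569). With sex left out of the fit, or with HET 9 or HET 15 left out, the HET call passed at adjusted p = 0.0305, 0.0466 and 0.0351, and DESeq2 gave 0.00620. Without both HET 11 and HET 16 the adjusted p was 0.560 for HET against WT and 0.143 for HOM against WT. Over all alternatives it ran from 0.00620 to 0.56 for HET and from 0.143 to 1 for HOM.

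Other genes were also at different levels in those groups. Stomach mucosa markers summed to 5149 to 16837 CPM in HOM and 24.6 to 95.5 CPM in WT, acinar markers to 4210 to 15988 CPM in HOM and 149 to 1158 CPM in WT, and genes in common use to 785 to 1480 CPM in HOM and 127 to 441 CPM in WT. Only 3 of the 14 acinar genes were counted in each HOM pancreas, and 2 to 4 in each WT pancreas, so the acinar sums rest on few genes. The part of these marker lists in the Prkcsh difference was not tested. Among HET pancreata, HET 9, with 21 Prkcsh counts, had 25736 CPM of stomach mucosa markers and 15838 CPM of acinar markers. HET 15, with 16 Prkcsh counts, had 18.4 and 105 CPM of them, and HET 10, with 0 Prkcsh counts, 1831 and 730 CPM.

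**Figure D4:**
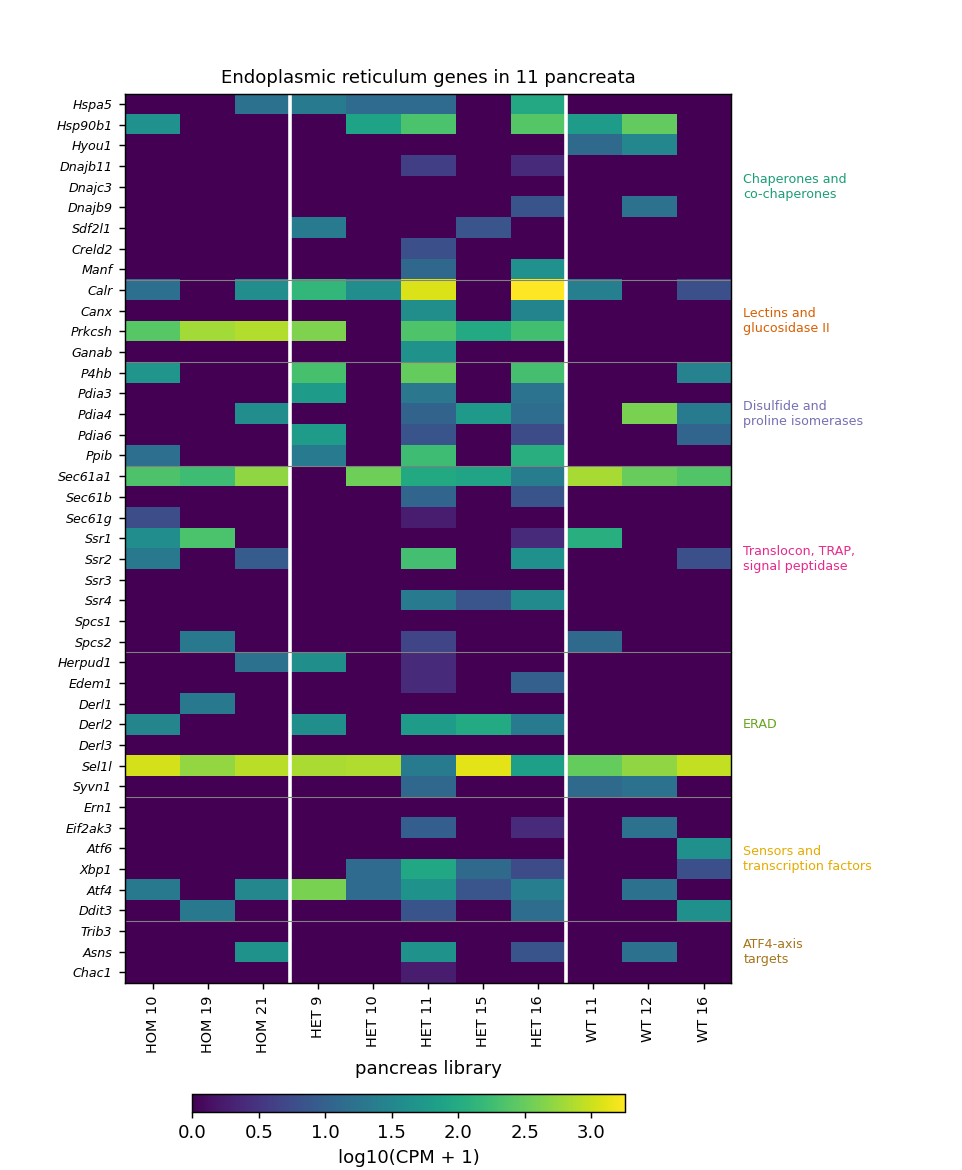
Level of all 43 members in 11 pancreata as a colour scale of log10(CPM + 1), with HOM, HET and WT libraries from left to right and members grouped by role. Most cells are at 0, Prkcsh is 0 in all 3 WT pancreata, Calr is high in HET 11 and HET 16, and Sel1l is lowest in the same pair.

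Calr set HET 11 and HET 16 apart from every other pancreas. It had 14.6, 0 and 38.8 CPM in HOM, 141, 38.4, 1236, 0 and 1810.3 CPM in HET 9, 10, 11, 15 and 16, and 24.6, 0 and 5.31 CPM in WT. It was the 1 tested member of 6 for which both libraries were above the other 9 (6.27% of all genes). The edgeR adjusted p was 0.176 for HET against WT and 0.319 for HOM against HET. DESeq2 called it in both comparisons, at 0.00770 and 0.0106, and over all alternatives the adjusted p reached 0.569 and 0.878.

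P4hb had 48.8, 0 and 0 CPM in HOM, 202, 0, 305, 0 and 195 CPM in HET, and 0, 0 and 26.5 CPM in WT (edgeR adjusted p = 0.121 for HET against WT). Hsp90b1 had 43.9, 0 and 0 CPM in HOM, 0, 76.8, 217, 0 and 252 CPM in HET, and 61.6, 299 and 0 CPM in WT, so that a WT pancreas was highest (adjusted p = 0.325 for HOM against HET). Sel1l went the other way, with 20.4 CPM in HET 11 and 67.1 CPM in HET 16 against 308 to 1322 CPM in the other 9 pancreata, where it was the most abundant member in 7. Sec61a1 ran from 178 to 520.4 CPM in HOM, 0 to 346 CPM in HET and 239 to 677 CPM in WT, and its count is uncertain because of the opposite-strand gene Gm44170.

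Of the members too low to test, Ppib had 3 counts over the HOM pancreata, 307 over HET and 0 over WT, at least 14.9-fold higher in HET than in WT. Of the HET counts, 233 were in HET 11 and 73 in HET 16. Hspa5 had 2 counts over HOM, 81 over HET, of which 62 were in HET 16, and 0 over WT. Xbp1 had 0 counts over HOM, 123 over HET, of which 117 were in HET 11, and 1 over WT. Without HET 11 and HET 16, too few HET counts of these genes remain for a comparison.

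Of the 94 further pathway genes, 16 were tested in pancreas and 0 were called. The smallest p in HOM against WT was that of Fkbp2, an ER proline isomerase, with 43 counts over HOM and 0 over WT (adjusted p = 0.957). In HET against WT it was that of Erp29, an ER folding protein, with 478 counts over HET and 0 over WT (adjusted p = 0.0753). In HOM against HET it was that of Erp29 again, with 2 counts over HOM and 478 over HET (adjusted p = 0.407). Pooled, Fkbp2 was at least 12.4-fold higher in HOM and Erp29 at least 23.2-fold higher in HET than in WT. Both passed the count filter through the groups where they were high, so their direction was fixed by the filter and supports nothing. How their counts were spread over the libraries is not given here.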

How the data were processed

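RNA of whole liver and pancreas was sequenced with MARS-seq libraries adapted to bulk tissue, per the labels' protocols. The submitters' processing notes name cutadapt, STAR and the build mm10. The sources used here give no tool versions, counting tool, strand setting or handling of molecular barcodes. The authors deposited whole-number counts per gene and call them corrected, with no statement of the correction, and the tests treat them as plain counts. Columns matched the labels by name and 0 were left over.

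CPM is counts per 1000000. Each table was fitted whole with edgeR 4.0.16 in R 4.3.3 (filterByExpr, TMM, robust quasi-likelihood F test) and p-values were Benjamini-Hochberg adjusted over all genes tested, with a threshold of 0.05. The 7 livers were fitted on genotype, the 11 pancreata together on genotype and sex. All HOM pancreata were male. The biological coefficient of variation was 35.4% in liver and 166% in pancreas. Where a group had 0 counts, 3 counts over the group set the limit, which covers counting error only. Alternatives were DESeq2 1.42.0, its size factors, library totals, no filter, a filter at a mean of 10 CPM, a fit without sex, only the groups compared, a block on replicate number, and each library (or HET 11 with HET 16) left out. The fit was also run on simulated counts that had the same spread for every gene. Libraries there differed only in depth and in genes changed by genotype. The pancreata also differed in marker sums, so that run cannot vouch for the fit there. Gene positions are GENCODE release M21 (mm10), and copies were sought with blastn 2.17.0+ (at least 95% identity over 100 of the last 300 bases). RefSeq promoter windows were matched by symbol for 37 of 43 members. For each comparison the text names the members called, then the 10 with the smallest p, members with counts in few libraries, and the 5 further pathway genes with the smallest p. The members and lists were chosen with earlier results of these data known.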

Additional observations from a re-analysis of the deposited data

Results flagged for a closer look

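Among groups of 5 HET libraries, 24 of 77 tests of a member in a tissue found a library far above the other 4. In 9 of the 24 the other 4 libraries were at 0, which meets the criterion by construction, so the usual rate of about 1 in 20 by chance does not apply to these sparse counts. In liver all 4 were HET 5, with 255.6 CPM of Hspa5, 55.7 CPM of Creld2, 20.8 CPM of Chac1 and 1.78 CPM (3 counts) of Asns. Chac1, which degrades glutathione and is a target of ATF4, had 35 counts in HET 5 and at most 3 in any other liver.

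In pancreas 20 were found, and 15 of them were in HET 11 or HET 16. These were the deepest pancreas libraries, with the highest sums of stomach mucosa and acinar markers. HET 11 was apart for Ssr2 at 189 CPM, Xbp1 at 88.2 CPM, Ganab at 46.7 CPM, Asns at 44.5 CPM, Syvn1 at 11.3 CPM, Eif2ak3 at 8.29 CPM, Creld2 at 5.28 CPM and Spcs2 at 3.77 CPM. Sec61g and Chac1 rest on 1 count each in that library (0.754 CPM). HET 16 was apart for Hspa5 at 92.5 CPM, Manf at 43.2 CPM, Edem1 at 8.95 CPM, Dnajb9 at 5.96 CPM and Ssr1 at 1.49 CPM (1 count).

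The other 5 were in shallow libraries. HET 9 stood at 404 CPM of Atf4 (20 counts), 60.6 CPM of Pdia6 (3 counts) and 40.4 CPM of Herpud1 (2 counts). HET 10 stood at 345.8 CPM of Sec61a1 (27 counts), and HET 15 at 55.3 CPM of Pdia4 (9 counts).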

How the results depend on the processing

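In liver, no member was called under any alternative except Ssr4, the 1 member called with no filter on low counts and with the replicate number as a block (log2 fold change 1.67, adjusted p = 0.0081). The genotype estimate of the block fit rests on HET 1 and HET 2 against WT 1 and WT 2 alone. HET livers without a WT liver of the same number add nothing to it, among them HET 5, where Ssr4 was nearest to WT. Same-numbered HET and WT libraries did not deviate together (correlations −0.0251 and −0.0260 in liver, 8.55e-04 and −0.0377 in pancreas). These values cannot tell whether same-numbered libraries were paired in some way. With 2 WT livers, the deviations of WT 1 and WT 2 mirror each other, so the 2 liver values are not separate checks. In pancreas, the same-numbered HET and WT libraries were of different sex. In pancreas HET against WT the members called were 2 by DESeq2 (Calr and Prkcsh), 1 without the sex term (Prkcsh), 1 with the block (Calr, adjusted p = 0.0113) and 0 to 1 with a library left out. The block fit has no sex term, and its HET estimate rests on HET 11 with WT 11 and HET 16 with WT 16. HET 11 and HET 16 are the libraries that held most Calr counts, so this call restates their difference from the other pancreata. In HOM against HET DESeq2 called 1 (Calr), and in HOM against WT no alternative called any. No paired analysis was possible for HOM against WT and HOM against HET because they share fewer than 2 numbers.

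Several pancreas fold changes changed sign. In HOM against WT, Sec61a1 was 0.11 with no filter, and with a library left out the log2 fold changes ran from −0.996 to 0.51 for Sec61a1, −1.46 to 4.11 for P4hb, −0.13 to 2.88 for Calr and −0.13 to 1.07 for Sel1l. In HET against WT, Sel1l was −0.25 with library totals, −0.055 with a mean of at least 10 CPM, −1.23 with the block and −0.41 to 1.01 with a library left out. In HOM against HET, Prkcsh was −0.25 by DESeq2, −0.27 without the sex term and −0.17 to 3.22 with a library left out, and Sec61a1 −0.18 to 1.15. The cause was not tested.

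The alternatives called 0 to 57 of all genes in liver, and in pancreas 0 to 13 between HOM and WT, 0 to 183 between HET and WT and 0 to 46 between HOM and HET. Scaling by library totals moved the all-gene median of the log2 fold change to −0.073 in liver (0.027 with TMM), −0.049 between HOM and WT (0.19), −0.77 between HET and WT (−0.20) and 0.72 between HOM and HET (0.35). In liver 2 WT libraries, 1 of them with 155201 counts, limit what can be seen, and in most pancreata 1 to 3 counts separate a member from 0.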
